A study of Mus musculus with 6 samples.

Results

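Atoh7 (ENSMUSG00000036816), 1 of the 27998 genes counted, was followed across the cell types of mouse retinas at embryonic day 14. It was chosen by name, and its level was read in each cell type and library. In the 2 libraries that were Bax null with intact Atoh7, neurogenic cells with at least 1 Atoh7 transcript were then compared with as many neurogenic cells of the same depth in which none was read. The assay was single-cell RNA-seq in droplets, in which a unique molecular identifier (UMI) marks each captured transcript. The 67050 cells came from 6 libraries in 3 groups of 2: Bax het with null Atoh7, Bax null with Atoh7 intact, and null for both genes (Bax null Atoh7 null, or double null). No group carried both genes intact, and the labels do not describe the null alleles or the embryos pooled for a library. The titles of the libraries with Bax null alone do not name Atoh7, which is called intact here because no null is given for it. Nothing states that the 2 libraries of a group came from separate litters, so the spread between these libraries may be technical. The tests take each gene's spread in part from other genes, so a p-value does not measure the spread between these libraries alone. It also does not cover which cells were picked for comparison.

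Atoh7 encodes a basic helix-loop-helix (bHLH) transcription factor that is switched on for a short time as retinal progenitors leave the cell cycle. It is known as a gene that ganglion cells need in order to form, and its transcript is also found in cells that become cones, horizontal and amacrine cells. Notch signalling, through repressors such as Hes1, holds cells in the progenitor state and keeps proneural bHLH genes off. The product of Bax carries out programmed cell death, and its loss lets neurons survive that would otherwise die.

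The gene lies on chromosome 10 of GRCm38, from 63099651 to 63101279 on the plus strand, and its main transcript in GENCODE M21 is a single exon with 447 coding bases. Proteins of the bHLH family bind the E-box, written CANNTG, and the 250 bases before the RefSeq start of Atoh7 (base 63099785, GRCm38.p6) held 3 copies of it. At least 1 copy stood in 66.2% of the 32851 RefSeq promoter windows of that length, and 3 or more in 12.2%. The 2 stretches that hold these copies are printed 5′ to 3′ on the plus strand with the E-boxes in capitals, because they show what the region next to the gene offers to this protein family:
chr10:63099555-63099584: accaggccactcCAGATGgtgtgttagtta
chr10:63099711-63099740: gcccgccCACCTGccacCACCTGttccctc
The E-boxes began 218, 67 and 57 bases before the RefSeq start. The longer GENCODE transcript starts further upstream, so the second stretch lies in its 5′ UTR. The motif reads the same class of sequence on both strands, and a match is a description of letters, not of binding.

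In the 2 Bax null libraries with intact Atoh7, 10268 and 9269 cells yielded 63085055 and 66594431 UMIs, and the median cell had 5660.5 and 6804 UMIs. The other 4 libraries held 9622 to 14730 cells with 22463515 to 33415227 UMIs, and medians of 1634 to 2632 UMIs. Mitochondrial genes stood at 37573 and 38649 UMIs per 1000000 UMIs (counts scaled so, CPM) in the neurogenic cells of the Bax null libraries and at 10500 to 11290 CPM in the other 4. The 2 libraries null for both genes shared 2596 cell barcodes, 17.6% of the cells of replicate 1 and 22.0% of those of replicate 2, and 89.4% of these pairs carried the same cell type label. The other 14 pairs of libraries shared 126 to 223 barcodes. In replicate 1 of the group labelled null for both, Bax stood at 47.7 CPM, against 11 CPM in replicate 2, 14.99 and 17.1 CPM in the libraries with Bax null alone and 107.7 and 143.5 CPM in those that were Bax het. The Bax level of that library, called the library labelled double null replicate 1 here, goes partly against its label, and the differences that use it are also given without it.

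No Atoh7 UMI was read in any of the 4 null libraries, among 47513 cells and 113925308 UMIs. In the Bax null libraries Atoh7 was highest in neurogenic cells, at 22.5 CPM (95% exact Poisson interval 19.8 to 25.4) in replicate 1 and 21.1 CPM (18.8 to 23.7) in replicate 2, a mean of 21.8 ± 0.941 CPM (SD, n = 2). Cones followed at 13.1 CPM (7.65 to 21.0) and 14.01 CPM (8.01 to 22.8), and ganglion cells at 7.35 CPM (5.80 to 9.19) and 10.4 CPM (8.54 to 12.5). Horizontal cells stood at 3.61 CPM (1.17 to 8.43) and 8.05 CPM (4.16 to 14.1). Retinal progenitors were lowest, at 0.570 CPM (0.357 to 0.863) and 0.488 CPM (0.294 to 0.762).

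Neurogenic cells stood highest in both libraries, with intervals clear of ganglion cells, horizontal cells and progenitors but overlapping with those of cones, whose interval in replicate 2 included the neurogenic value. Progenitors lay below every other type, with no overlap. The intervals of cones, ganglion cells and horizontal cells overlapped in both libraries, so the order among these 3 types is not resolved at this depth. The authors' cell types were drawn from clusters of the same cells, so these levels are a description and carry no test. The intervals cover counting error only. A count of 0 allows up to 3 UMIs, which in neurogenic cells of the null libraries is a limit of 0.496 to 0.679 CPM. The Bax null mean was 32.1 times the highest such limit in neurogenic cells, 5.65 times in ganglion cells and 4.03 times in cones. It was 2.48 times the limit in progenitors and 1.61 times in horizontal cells. These ratios leave out the counting error of the mean, so they are not lower bounds. In horizontal cells replicate 1, at 3.61 CPM, lay below the limit of 3.628 CPM.

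**Figure D1:**
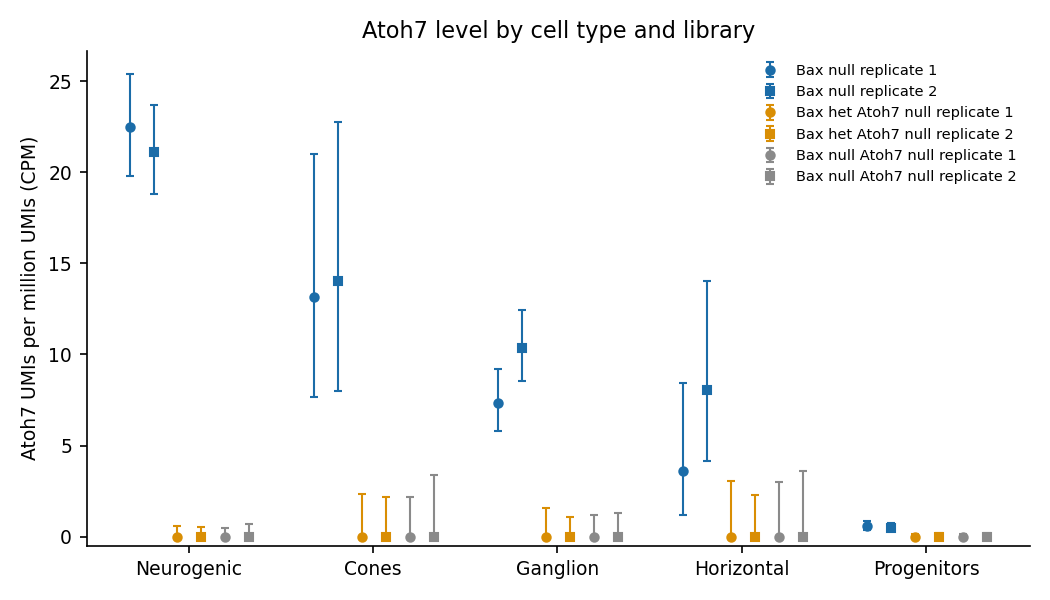
Atoh7 CPM in each cell type (x axis) and library (points; circles replicate 1, squares replicate 2), with exact Poisson 95% intervals, or for a library at 0 the limit that 3 UMIs would give. Neurogenic cells of the Bax null libraries sit at 22.5 and 21.1 CPM, progenitors at 0.570 and 0.488 CPM, and all 4 Atoh7 null libraries at 0.

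Detection was sparse even where the level was highest. An Atoh7 UMI was read in 233 of 1663 neurogenic cells (14.01%, Wilson 95% interval 12.4 to 15.8%) in replicate 1 and in 262 of 1700 (15.4%, 13.8 to 17.2%) in replicate 2. The share was 4.83% and 5.06% in cones, 4.29% and 6.75% in ganglion cells, 1.54% and 3.86% in horizontal cells, and 0.340% and 0.348% in progenitors. Progenitors had about the depth of neurogenic cells, with medians of 5869 and 6977 UMIs against 5807 and 7141.5. No share of free RNA was measured, so what part of these low shares is background was not tested. Cones had a median of 3502 and 3854 UMIs. With every cell thinned to 2000 UMIs the mean share was 5.18% in neurogenic cells, 2.43% in cones, 2.07% in ganglion cells, 1.08% in horizontal cells and 0.108% in progenitors. The thinning left out 376 and 385 shallower cells of the 2 libraries, 30 and 14 of them cones.

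Of the 762 cells with an Atoh7 UMI in the Bax null libraries, 65.0% were neurogenic, 23.9% ganglion cells, 5.25% progenitors, 3.81% cones and 2.10% horizontal cells. Most had a single UMI, and none had over 3. In neurogenic cells 21 and 33 cells had 2 or 3 UMIs. A neurogenic cell in which no Atoh7 UMI was read can therefore still have expressed the gene.

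The labels were set beside marker genes with Atoh7 left out. The types were drawn from clusters of the same cells, so this is a description and no independent check. All 7 progenitor markers were highest in the cells labelled progenitors, all 9 ganglion cell markers in the ganglion cells, all 7 cone markers in the cones and all 8 horizontal and amacrine markers in the horizontal cells. In the latter these 8 ran from Onecut2 at 1070 CPM and Ptf1a at 468 CPM to Lhx1 at 17.0 CPM. They cover both kinds of cell, so the label was not shown to hold horizontal cells alone. Of the 9 neurogenic markers, 6 were highest in neurogenic cells, among them the proneural factor Neurog2 with 242 CPM against 37.4 CPM in progenitors. The Notch ligand gene Dll3, the antiproliferative gene Btg2 and the bHLH gene Neurod4 were highest in cones.

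Within the types Atoh7 was concentrated in some of the authors' clusters. The 58 clusters with at least 50 cells in each Bax null library were compared. Over both libraries the 15 neurogenic clusters ran from 0.932 to 41.2 CPM with a median of 27.3 CPM, the 10 ganglion cell clusters from 0 to 31.4 CPM, and the 28 progenitor clusters from 0 to 1.86 CPM, with 16 of them at 0. The 3 cone clusters ran from 2.52 to 18.4 CPM and the 2 horizontal cell clusters stood at 2.18 and 11.03 CPM.

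Neurogenic clusters with like Atoh7 levels differed in other bHLH and Notch genes. Cluster 3 (246 cells) had 28.7 and 55.1 Atoh7 CPM in replicates 1 and 2, with Neurog2 at 854 CPM, Hes1 at 26.8 CPM and the photoreceptor factor Otx2 at 799 CPM over both. Cluster 29 (195 cells) had 49.6 and 28.4 Atoh7 CPM, with Neurog2 at 178 CPM, Hes1 at 648 CPM, Hes5 at 1637 CPM and Otx2 at 81.0 CPM. Their 95% intervals for Atoh7 over both libraries, 31.7 to 52.8 and 30.1 to 52.4 CPM, nearly coincided. The order of these clusters was opposite in replicates 1 and 2, and the intervals leave out the spread between libraries. At the other end, clusters 61, 134 and 113 carried the neurogenic label with Atoh7 at 3.15, 1.97 and 0.932 CPM. In these 3 clusters Hes1 stood at 1293 to 1467 CPM, the secreted Wnt modulator gene Sfrp2 at 1451 to 1629 CPM and the stress-response gene Gadd45a at 130 to 174 CPM. Over all progenitors the same genes stood at 1625, 1547 and 51.1 CPM.

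Among ganglion cell clusters Atoh7 was highest where genes of mature ganglion cells were lowest. Cluster 44 (306 cells) had 24.2 and 38.5 Atoh7 CPM, with Sncg, which encodes gamma-synuclein, at 8.18 CPM and the axon growth gene Gap43 at 44.7 CPM. Cluster 92 (283 cells) had 24.3 and 20.4 Atoh7 CPM, with Sncg at 5.01 CPM and Gap43 at 153 CPM. In cluster 9 (438 cells) Atoh7 stood at 3.496 and 9.947 CPM and Sncg at 1629 CPM, and in cluster 121 (163 cells) no Atoh7 UMI was read in either library, with Sncg at 6410 CPM and Gap43 at 5804 CPM. Pou4f2, a ganglion cell factor that acts after Atoh7, stood at 39.6 CPM in cluster 44, 105 CPM in cluster 92 and 59.4 CPM in cluster 121.

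**Figure D2:**
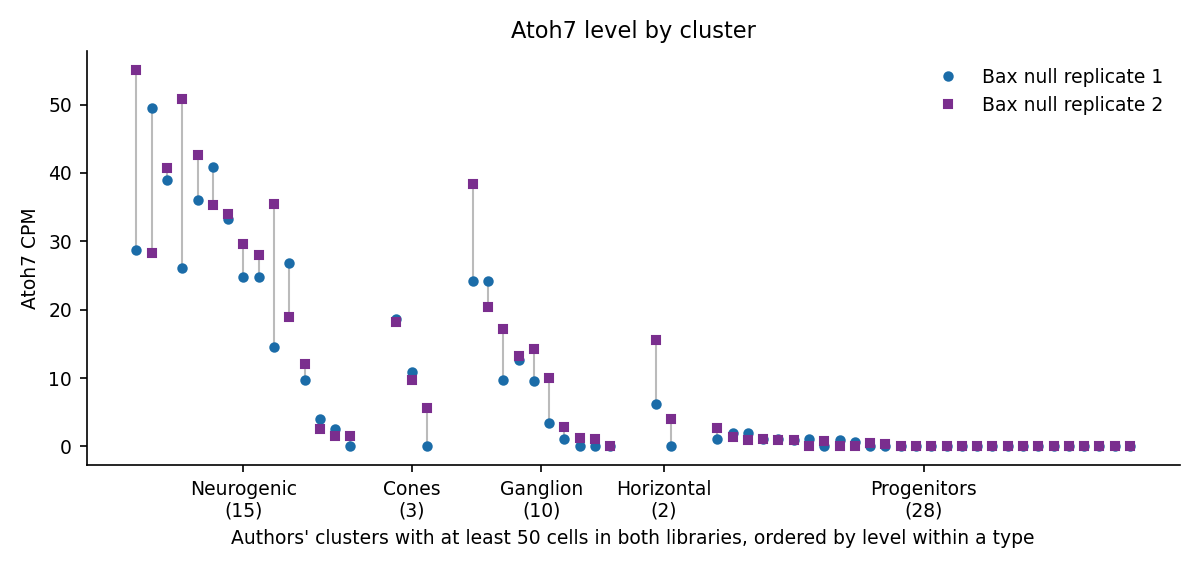
Atoh7 CPM in each of the 58 clusters with at least 50 cells in both Bax null libraries (circles replicate 1, squares replicate 2, joined by a line), grouped by cell type and ordered by level. Neurogenic clusters reach 41.2 CPM over both libraries, 2 ganglion cell clusters stand at 22.2 and 31.4 CPM, and 16 of 28 progenitor clusters are at 0.

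The genes whose profile over these 58 clusters was most like that of Atoh7 were ranked by the lower of the 2 libraries' Pearson correlations of log2(CPM + 5). The first 10 were Bhlhe22 (r of 0.910 and 0.911 in replicates 1 and 2), Gadd45a (0.903 and 0.939), Hnrnph3 (0.901 and 0.951), Phlda1 (0.899 and 0.941), Susd6 (0.876 and 0.913), Hes6 (0.876 and 0.903), Tff3 (0.870 and 0.895), Pkib (0.866 and 0.920), Rgs16 (0.864 and 0.876) and Mfng (0.862 and 0.907). Bhlhe22 encodes a bHLH repressor, Hes6 a Hes family member that opposes Hes1, and Mfng a glycosyltransferase that modifies Notch. The clusters were made from the same genes and share libraries and depth, so the values are a description with no test. Between 7 and 10 of these genes stayed in the first 10 with a pseudocount of 1 CPM, with clusters of at least 100 cells, or in either library alone.

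Within neurogenic cells, those in which Atoh7 was read had lower Hes1, Sfrp2, Six6 and Mest and higher Hes5, Gadd45a, Dlx2, Top2a and Tubb3 than those in which it was not, with 7 other genes also called higher. The 233 and 262 detected cells were each paired with the neurogenic cell of the same library nearest in total UMIs, which gave medians of 6242 against 6244 UMIs in replicate 1 and 6987 against 6981 in replicate 2. Counts were summed to 4 sums, 1 per library and class, and tested with edgeR's quasi-likelihood test with the library as a block, which leaves 1 residual degree of freedom. Of 8563 genes, 16 were called at a Benjamini-Hochberg adjusted p under 0.05 (0.187%), 12 higher (0.14%) and 4 lower (0.0467%) with Atoh7, and 785 had an unadjusted p under 0.05. Levels in these tests are CPM rescaled with edgeR's TMM factors, which balance the composition of the sums.

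The Notch effectors Hes1 and Hes5, both repressors of the Hes family, were called in opposite directions. Hes1 stood at 453 CPM in detected and 692 CPM in matched cells of replicate 1, and at 492 and 754 CPM in replicate 2. Both detected sums lay below both matched sums, which the fit put at -0.62 in log2 with an SE of 0.05 (adjusted p 0.00742). Hes5 stood at 1094 against 790 CPM in replicate 1 and at 1049 against 775 CPM in replicate 2. It was higher with Atoh7 in both libraries, by 0.45 in log2 (SE 0.04, adjusted p 0.0132). A Hes1 UMI was read in 44.6% of detected and 56.2% of matched cells in replicate 1 and in 44.7% and 59.9% in replicate 2, and a Hes5 UMI in 76.8% against 72.5% and in 75.6% against 71.8%.

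Of the 20 Notch pathway genes listed, 18 were tested, and 13 lay above 0 and 5 below, with a median of 0.19 against -0.0034 for all genes. The median was 0.03 with each cell matched inside its own cluster. Hes5 and Hes1 were the 2 called. Hey1, another Notch target, had a value of 0.86 in log2 (SE 0.16, adjusted p 0.144) and the receptor gene Notch1 0.25 (SE 0.08, adjusted p 0.417), and neither was called.

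Of the 16 listed genes of the progenitor state, all were tested, and Hes1, Sfrp2 and Six6 were called lower where Atoh7 was read and none higher. Sfrp2 stood at 328 CPM in detected and 541 CPM in matched cells of replicate 1 and at 387 and 674 CPM in replicate 2. The detected sums lay below both matched sums, at -0.77 in log2 (SE 0.05, adjusted p 0.00742). The homeobox gene Six6, a factor of eye field and progenitor growth, stood at 277 against 391 CPM and at 312 against 443 CPM, a fitted difference of -0.50 in log2 (SE 0.06, adjusted p 0.0321). In this list 14 lay below 0 and 2 above, with a median of -0.49, or of -0.10 with each cell matched inside its own cluster. The secreted factor gene Fgf15, at -0.71 (SE 0.11, adjusted p 0.0847), and the cyclin gene Ccnd1, at -0.67 (SE 0.11, adjusted p 0.0977), were not called. Matched inside clusters, Ccnd1 was called lower at -0.27 (adjusted p 6.05e-05) and Fgf15, at -0.07, was not (adjusted p 0.995). With at least 2 Atoh7 UMIs Fgf15 was called at -1.04 (adjusted p 0.000269) and Ccnd1, at -0.54, was not (adjusted p 0.209). The imprinted gene Mest stood at 47.7 against 90.7 CPM and at 62.1 against 115 CPM, a fitted difference of -0.90 in log2 (SE 0.11, adjusted p 0.0356).

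No proneural gene was called in this comparison. Of 12 listed proneural bHLH genes 8 were tested, 7 lay above 0 and 1 below, none was called, and the median was 0.20. It was 0.04 with each cell matched inside its own cluster. Neurog2 stood at 271 CPM in detected and 316 CPM in matched cells of replicate 1 and at 339 and 217 CPM in replicate 2. The 2 libraries went opposite ways, and the fitted log2 fold change was 0.23 (SE 0.17, adjusted p 0.722). With a second matched set it was called, at 0.30 (adjusted p 0.00188). Neurod1, a bHLH factor of photoreceptor and amacrine fates, had 0.02 (SE 0.12, adjusted p 0.986), and Olig2, a bHLH factor of cells in their last divisions, 0.39 (SE 0.23, adjusted p 0.653).

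Gadd45a was the 1 gene called among the transition genes, those of cells on the way from progenitor to neuron. It stood at 1325 against 1105 CPM in replicate 1 and at 1425 against 1112 CPM in replicate 2. It was higher with Atoh7 in both, by 0.31 (SE 0.04, adjusted p 0.0321), and a Gadd45a UMI was read in 98.7% against 91.4% and in 98.9% against 87.0% of the cells. Of 20 listed transition genes 18 were tested, 17 lay above 0 and 1 below, and the median was 0.24. With each cell matched inside its own cluster the median was -0.05, and Gadd45a stood at 0.02 (adjusted p 0.995). Sox11 and Sox4, factors of immature neurons, had 0.27 (SE 0.04, adjusted p 0.0545) and 0.25 (SE 0.05, adjusted p 0.176).

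Genes of ganglion cells lay mostly above 0 in the same comparison. Of 22 listed, 16 were tested, 14 lay above 0 and 2 below, 1 was called higher, and the median was 0.45, or 0.0010 with each cell matched inside its own cluster. The 1 called was Tubb3, a neuronal tubulin, at 622 against 438 CPM and at 511 against 395 CPM, a fitted difference of 0.43 in log2 (SE 0.06, adjusted p 0.0490). Eya2, a transcriptional coactivator found in young ganglion cells, stood at 99.1 against 58.2 CPM and at 103 against 62.9 CPM. Its sums did not overlap, at 0.74 (SE 0.11), and the adjusted p of 0.0708 did not reach the threshold. Isl1, which acts beside Pou4f2, stood at 66.9 against 25.0 CPM and at 40.7 against 28.1 CPM, with 0.96 (SE 0.22, adjusted p 0.212). Pou4f2 had 5.57 against 5 CPM and 10.2 against 5.32 CPM, with 0.64 (SE 0.40, adjusted p 0.676).

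The homeobox gene Dlx2, known in ganglion and inhibitory neuron development, had a log2 fold change near the size of Mest in the other direction. It stood at 132 CPM in detected and 70.1 CPM in matched cells of replicate 1 and at 93.1 and 54.2 CPM in replicate 2. Both detected sums lay above both matched sums, at 0.85 (SE 0.11, adjusted p 0.0453), and a Dlx2 UMI was read in 47.2% against 30.04% and in 41.2% against 26.0% of the cells.

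**Figure D3:**
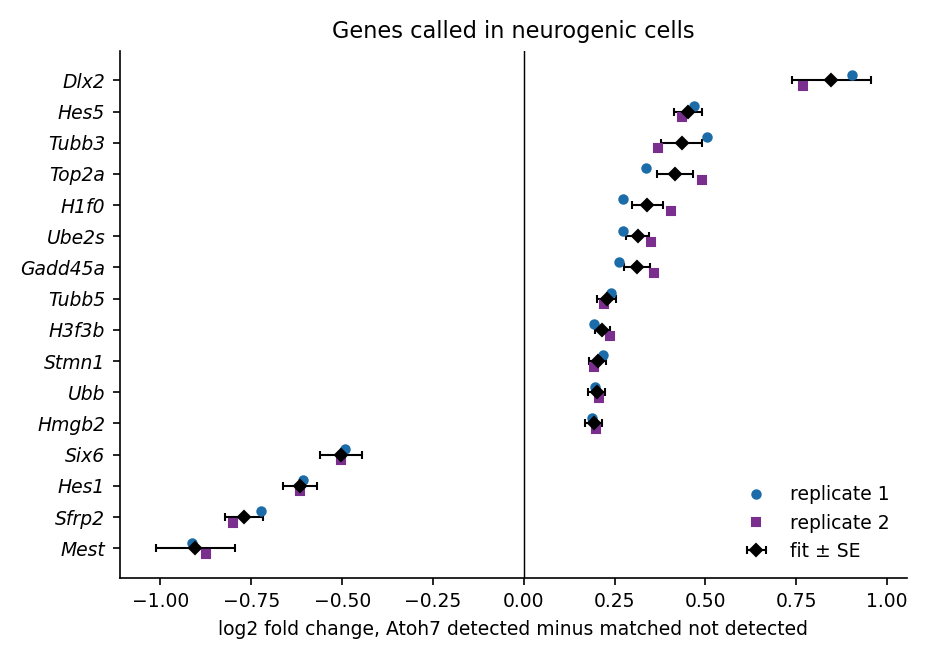
Log2 fold change (x axis) of the 16 genes called in neurogenic cells, Atoh7 detected minus matched not detected, in replicate 1 (circles), in replicate 2 (squares) and in the fit (diamonds, bars are 1 SE). The libraries lie on the same side of 0 for each of the 16 genes, from Mest at -0.90 to Dlx2 at 0.85.

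Genes of G2 and mitosis lay mostly above 0 and those of S phase mostly below. Of 17 listed genes of G2 and mitosis, all were tested, 14 lay above 0 and 3 below. Of these 2 were called higher, against 0.14% of all genes tested. These were the topoisomerase gene Top2a, at 802 against 635 CPM and at 784 against 558 CPM (0.42, SE 0.05, adjusted p 0.0321), and the chromatin protein gene Hmgb2 (0.19, SE 0.02, adjusted p 0.0321). Of 18 S phase genes, all were tested, 13 lay below 0 and 5 above, none was called, and the median was -0.20 against 0.16 for G2 and mitosis. Matched inside clusters, these medians were -0.03 and 0.06. Of 11 cell cycle exit genes, Gadd45a was the 1 called. The remaining called genes were all higher with Atoh7, by 0.20 to 0.34. They were the ubiquitin-conjugating enzyme gene Ube2s, the ubiquitin gene Ubb, the tubulin gene Tubb5, the microtubule-destabilising protein gene Stmn1, and the histone genes H3f3b and H1f0.

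None of the 7 amacrine and horizontal, 3 photoreceptor or 6 early response genes tested was called, with medians of 0.25, 0.22 and -0.14. Markers of other cells were summed in each class. The 5 erythroid markers summed to 475 CPM in detected and 460 CPM in matched cells of replicate 1 and to 369 and 384 CPM in replicate 2. Endothelial markers summed to 20.1 to 28.3 CPM in the 4 sums, and lens, pigment epithelium, microglia and mesenchyme markers to 0 to 8.18 CPM, with at least 1 of the 5 markers at 0 in every sum. Mitochondrial genes stood at 36536 against 37839 CPM and at 38617 against 38735 CPM. Progenitor markers summed to 2060 against 3314 CPM and to 2347 against 3270 CPM, and ganglion cell markers to 493 against 271 CPM and to 337 against 255 CPM, and the part of these sums in the calls was not tested.

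With each cell matched inside its own cluster, all 16 genes kept their direction but 3 kept a call (Hes5, Top2a and H1f0), and the median size of their log2 fold changes was 0.10 against 0.38. Hes5 stood at 0.43 in that comparison, Hes1 at -0.07 and Sfrp2 at -0.19. With at least 2 Atoh7 UMIs as the rule of detection, which left 21 and 33 cells, Hes1 was the 1 of the 16 still called (-0.69), and DESeq2 called 5 of the 16.

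**Figure D4:**
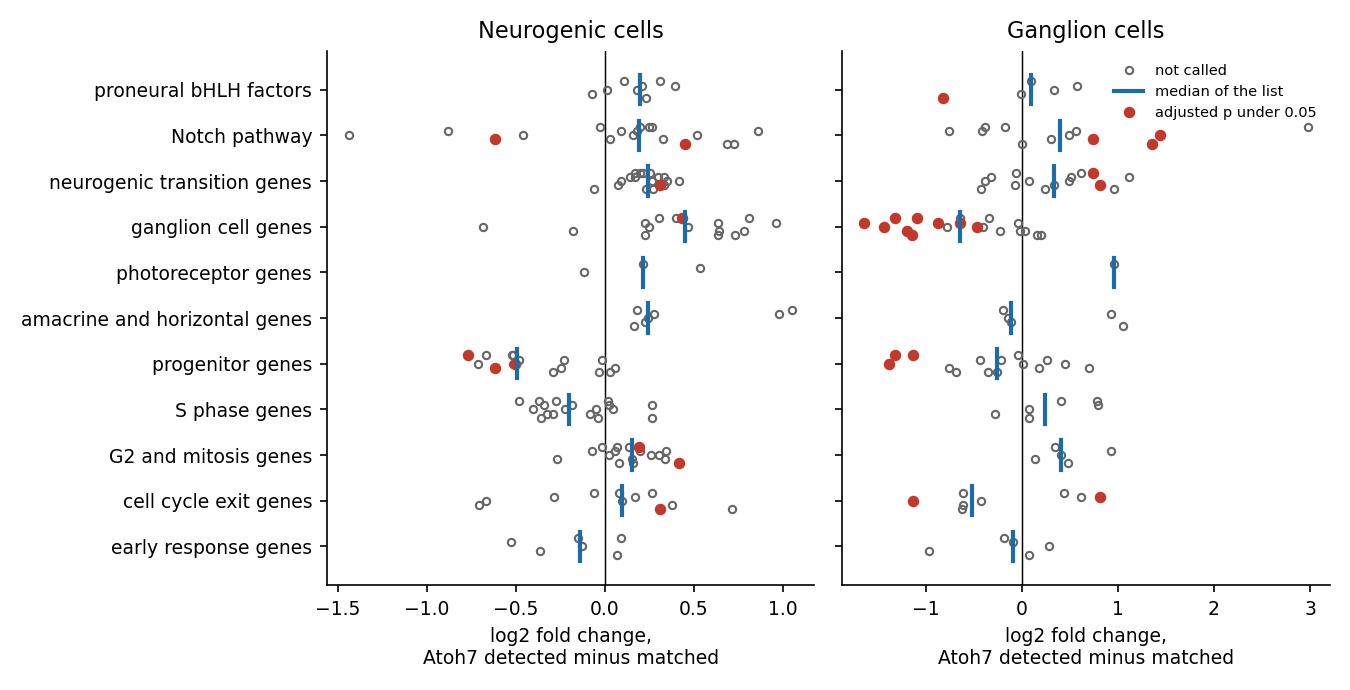
Log2 fold change (x axis), Atoh7 detected minus matched, of every tested member of the 11 gene lists (rows) in neurogenic cells (left) and ganglion cells (right). Filled points have an adjusted p under 0.05, open points do not, and bars mark list medians: the ganglion cell list has a median of 0.45 in neurogenic cells and -0.64 in ganglion cells.

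The few progenitors in which Atoh7 was read carried more Gadd45a and Hes6 than their matched progenitors. There were 21 and 19 such cells. Of 2093 genes 7 passed the same threshold (0.334%), 6 of them higher (0.287%) and 1 lower (0.0478%). Gadd45a had 40 UMIs in detected and 8 in matched cells of replicate 1 and 55 against 5 in replicate 2, a fitted difference of 2.83 in log2 (SE 0.36, adjusted p 1.56e-11). Hes6 had 119 against 59 UMIs and 124 against 22 UMIs, with 1.60 (SE 0.21, adjusted p 2.87e-11). The libraries' log2 values were 2.04 and 3.08 for Gadd45a and 0.96 and 2.44 for Hes6. Both genes were higher in both libraries, which lay further apart than the SEs above. With a second matched set Gadd45a was at 1.80 (adjusted p 0.0470) and Hes6 at 0.77 (adjusted p 0.249), and with matching inside clusters they were at 1.17 (adjusted p 0.00863) and 0.92 (adjusted p 0.000387).

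Hes5 had 66 against 43 and 97 against 42 UMIs, with 0.92 (SE 0.22, adjusted p 0.0293), and the pleckstrin homology-like gene Phlda1 had 13 against 4 and 21 against 1 UMIs, with 2.69 (SE 0.67, adjusted p 0.0293). The other 3 called were chosen for naming after their values were seen: the histone gene Hist1h2ap (0.64), Csrp2, which encodes a LIM-domain protein (0.67), and the growth factor gene Mdk (-0.40). Hes1 had -0.39 (SE 0.11, adjusted p 0.0710). DESeq2 called 0 of the 2093 genes, with 5 at an unadjusted p under 0.05, and edgeR called 0 against all unmatched progenitors, with 462 at an unadjusted p under 0.05. With a second matched set Gadd45a alone was called, and Hes5 turned to -0.19 when matched inside clusters.

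The effect of Atoh7 detection was then compared between the 2 types in 1 fit of 8 sums. Of 7789 genes 3 differed (0.0385%), all with a lower log2 fold change in neurogenic cells than in progenitors. Gadd45a differed by -2.54 (SE 0.38, adjusted p 0.000164), from 0.31 in neurogenic cells and 2.83 in progenitors. Hes6 differed by -1.37 (SE 0.24, adjusted p 0.00146), from 0.20 and 1.60. Ccnd1 differed by -1.01 (SE 0.17, adjusted p 0.00146), from -0.67 and 0.35. With the second matched set the differences were -1.51 for Gadd45a (adjusted p 0.0280) and -0.61 for Ccnd1 (adjusted p 0.0310), both called, and -0.52 for Hes6, not called (adjusted p 0.822).

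In ganglion cells several genes of mature neurons, Sncg and Gap43 among them, were called lower where Atoh7 was read. Here 76 and 106 detected cells were matched at medians of 4952 against 4952.5 and 6188.5 against 6187.5 UMIs. Clusters 44 and 92, high in Atoh7 and low in Sncg, held 44.7% of detected and 14.5% of matched cells in replicate 1. In replicate 2 they held 37.7% and 25.5%. Of 5329 genes 58 passed the threshold (1.09%), 8 higher (0.15%) and 50 lower (0.938%) with Atoh7. Of the 22 listed ganglion cell genes 19 were tested, 16 lay below 0 and 3 above, 9 were called lower and none higher, and the median was -0.64 against 0.0022 for all genes.

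Sncg stood at 365 CPM in detected and 1355 CPM in matched cells of replicate 1 and at 738 and 2094 CPM in replicate 2. Detected sums lay below both matched sums, at -1.64 (SE 0.09, adjusted p 0.000111). Gap43 stood at 904 against 1981 CPM and at 1203 against 2506 CPM, with -1.09 (SE 0.07, adjusted p 0.000170). The neurofilament gene Nefl (-0.87), the transcription factor genes Ebf1 (-0.64) and Pou4f1 (-1.19), the RNA-binding protein gene Rbpms (-1.31) and the axonal gene Stmn2 (-0.47) were also called lower. Pou4f2 (0.16, SE 0.20, adjusted p 0.843) and Isl1 (0.04, SE 0.08, adjusted p 0.931) were not called.

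Genes higher with Atoh7 in ganglion cells included Notch and transition genes. Hes5 stood at 400 against 98.1 CPM and at 461 against 201 CPM, with 1.44 (SE 0.16, adjusted p 0.00292). Hey1 (1.36), Hes6 (0.74) and Gadd45a (0.81) were called higher as well. In this direction Hes5 and Gadd45a lay as they did in neurogenic cells and progenitors, whose cells are others but whose libraries are the same. Of genes outside the lists, named after their values were seen, the neuropeptide gene Gal was higher (0.98, SE 0.07, adjusted p 0.000445) and the retinoic acid-binding protein gene Crabp1 lower (-1.86, SE 0.20, adjusted p 0.00242). The progenitor genes Ccnd1 (-1.13), Id3 (-1.32) and Fgf15 (-1.38) and the bHLH gene Nhlh2 (-0.82) were called lower.

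With matching inside clusters none of 5253 genes was called, 235 had an unadjusted p under 0.05, and 46 of the 56 called genes that could be tested kept their direction, with a median size of 0.14 against 1.04. Sncg then stood at -0.12 and Gap43 at 0.04. Without the filter on low counts none of 13651 genes was called, and 657 had an unadjusted p under 0.05.

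The same genes were read in the neurogenic cells of retinas with null Atoh7. The Bax null libraries enter both this comparison and the one between cells, so values are set side by side. The double null and Bax null libraries differ in Atoh7 by their labels, whereas the Bax het Atoh7 null libraries differ from Bax null in both genes. Of 11670 genes tested in 1 fit of 6 libraries, 5518 passed the threshold (47.3%) between the double null libraries and those null for Bax alone, 23.5% higher and 23.8% lower. Between the Bax het Atoh7 null libraries and those null for Bax alone it was 5499 (47.1%), 23.4% higher and 23.8% lower. The depth and the mitochondrial share given above divide the libraries the same way as the Atoh7 genotype, so a batch and the genotype cannot be told apart. As a value within each library, the difference between its neurogenic cells and its progenitors was compared as well, which called 997 and 1118 genes. Without the barcodes that the 2 libraries null for both genes share, 5109 and 5225 genes were called, and without the library labelled double null replicate 1, 5156 and 6043.

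Isl1 stood at 47.9 and 46.9 CPM with Atoh7 intact, at 9.70 and 8.38 CPM in the Bax het Atoh7 null libraries, and at 7.60 and 8.34 CPM in the double null libraries. All 4 null libraries lay below both Bax null libraries, by -2.57 (SE 0.14, adjusted p 6.44e-08) for the double null and -2.40 (SE 0.13, adjusted p 9.76e-08) for Bax het Atoh7 null. The within-library values were -2.78 and -2.41. Eya2 stood at 94.8 and 76.1 CPM with Atoh7 intact and at 15.2 to 19.4 CPM in the 4 null libraries, by -2.28 (SE 0.14, adjusted p 2.98e-07) and -2.29 (SE 0.14, adjusted p 3.16e-07), and within libraries by -1.07 and -1.01. Dlx2 stood at 95.6 and 70.8 CPM with Atoh7 intact and at 39.0 to 58.2 CPM in the null libraries, by -0.77 (SE 0.18, adjusted p 0.00452) and -0.74 (SE 0.18, adjusted p 0.00569). Without the library labelled double null replicate 1 the double null difference was -2.50 for Isl1, -2.49 for Eya2 and -0.51 for Dlx2, all still called. Both Dlx2 calls were lost without Bax null replicate 1 (-0.54 and -0.51), and that against Bax het Atoh7 null also without its replicate 1 (-0.63). These 3 genes, at higher values in cells with an Atoh7 UMI (Dlx2 called, Eya2 and Isl1 not), were called lower without Atoh7. Pou4f2 stood at 7.36 and 8.91 CPM with Atoh7 intact and at 1.02 to 2.59 CPM in the null libraries. It differed by -2.23 and -2.56, both called, and within libraries by -1.22 and -1.07, neither called. Genotype values of the other listed ganglion cell genes are not given singly. Summed markers also differed between the genotypes in these cells. As a sum (CPM with no TMM scaling) the 9 ganglion cell markers, Isl1 and Pou4f2 among them, went the other way. They summed to 690 to 874 CPM in the 4 null libraries against 311 and 302 CPM in the Bax null libraries. The 9 neurogenic markers summed to 6038 to 7203 CPM against 3425 and 3013 CPM, and the 5 erythroid markers to 8.83 to 197 CPM against 452 and 379 CPM. Their part in the genotype results was not tested.

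Sfrp2, Six6 and Mest were lower both in neurogenic cells with an Atoh7 UMI and in the neurogenic cells of retinas with null Atoh7. Sfrp2 stood at 871 and 1026 CPM with Atoh7 intact and at 552 to 688 CPM in the null libraries, by -0.59 (SE 0.13, adjusted p 0.00273) for the double null and -0.74 (SE 0.13, adjusted p 0.000674) for Bax het Atoh7 null. Six6 differed by -0.42 and -0.62 and Mest by -0.90 and -1.11, all called. Without Bax null replicate 2 the double null difference was -0.47 for Sfrp2 (adjusted p 0.0573) and -0.29 for Six6 (adjusted p 0.161), neither called. Without the library labelled double null replicate 1 it was -0.76 for Sfrp2, -0.49 for Six6 and -1.19 for Mest, all called. Within libraries the differences were -0.83 and -1.02 for Sfrp2, -0.30 and -0.35 for Six6 and -0.91 and -1.12 for Mest. In progenitors Sfrp2 stood at 1586 and 1508 CPM with Atoh7 intact and at 2619 to 3163 CPM in the null libraries. Progenitor values are CPM with no TMM scaling, so their order cannot be set directly against that of the scaled neurogenic values.

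Hes1 stood at 891 and 1091 CPM in neurogenic cells with Atoh7 intact and at 60.8 to 98.2 CPM in the null libraries, by -3.88 (SE 0.15, adjusted p 3.96e-09) and -3.48 (SE 0.15, adjusted p 9.27e-09). Its progenitor values, also with no TMM scaling, were split the same way, at 1576 and 1673 CPM against 249 to 394 CPM. The within-library values were -0.56 and -0.81. Without the library labelled double null replicate 1 the double null difference was -4.03. Hes5 and Gadd45a, called higher in cells with an Atoh7 UMI, did not pass the test between genotypes. Hes5 stood at 1021 and 914 CPM with Atoh7 intact and at 772 to 1000 CPM in the null libraries, with 0.0040 (SE 0.12, adjusted p 0.982) and -0.24 (SE 0.12, adjusted p 0.122). Gadd45a stood at 1364 and 1206 CPM with Atoh7 intact and at 1056 to 1486 CPM in the null libraries, with -0.0038 (SE 0.16, adjusted p 0.987) and -0.02 (SE 0.16, adjusted p 0.943). Without the library labelled double null replicate 1 the double null differences were -0.06 for Hes5 and 0.21 for Gadd45a, neither called. The double null difference of Gadd45a was called at -0.29 without double null replicate 2 (adjusted p 0.0182), and the Bax het Atoh7 null difference of Hes5 at -0.24 without either double null library (adjusted p 0.0223 and 0.0208). Within libraries both were called lower without Atoh7, Hes5 by -0.15 and -0.16 and Gadd45a by -0.28 and -0.38.

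Other genes were higher without Atoh7. Neurog2 stood at 344 and 286 CPM with Atoh7 intact, at 742 and 729 CPM in the Bax het Atoh7 null libraries and at 604 and 783 CPM in the double null libraries. All 4 null libraries lay above both Bax null libraries, by 1.15 (SE 0.14, adjusted p 5.82e-05) for the double null and 1.21 (SE 0.14, adjusted p 4.59e-05) for Bax het Atoh7 null, and within libraries by 0.67 and 0.71, all called. Of the 10 genes with a cluster profile like that of Atoh7, 4 were called higher in both comparisons, 3 lower in both, 1 in a single comparison and 2 in neither. Over all genes 47.3% and 47.1% were called in the 2 comparisons, and the share called in both was not counted. Those higher were Bhlhe22 (1.19 and 1.53), Pkib (1.43 and 1.66), Mfng (0.76 and 0.67) and Rgs16 (0.57 and 0.42). Those lower were Hnrnph3 (-0.57 and -0.45), Susd6 (-2.06 and -1.14) and Tff3 (-1.25 and -0.56). Within libraries the 4 higher genes turned the other way. The values were -0.43 and -0.35 for Bhlhe22, -0.34 and -0.55 for Pkib, -0.22 and -0.37 for Mfng and -0.55 and -0.66 for Rgs16. Rgs16 was called lower in both comparisons, and Pkib and Mfng in that with the Bax het Atoh7 null libraries. Of the 3 lower genes only Tff3 was called within libraries (-1.88 and -1.41). Values of Rgs16 and the 3 lower genes without the library labelled double null replicate 1 are not given. Without the library labelled double null replicate 1 the double null differences were 1.32 for Neurog2, 1.23 for Bhlhe22, 1.57 for Pkib and 0.78 for Mfng, all called.

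**Figure D5:**
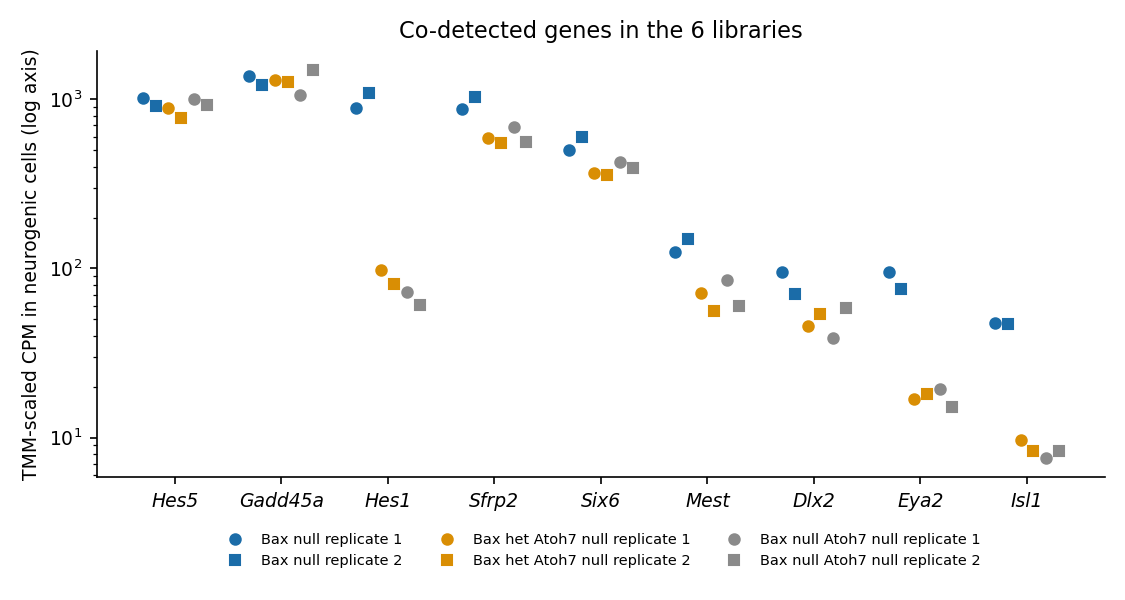
TMM-scaled CPM (log axis) in the neurogenic cells of the 6 libraries for 9 genes set beside the comparison of cells (circles replicate 1, squares replicate 2, colours the 3 genotypes). Isl1 and Eya2 lie above in both Bax null libraries, at 47.9 and 46.9 CPM and at 94.8 and 76.1 CPM, while the libraries of Hes5 and Gadd45a overlap.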

How the data were processed

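Retinas were taken from mouse embryos (embryonic day 14), and libraries were made with the 10x 3' v2 kit, per the labels' protocols. The authors deposited raw UMI counts per gene and cell, with total counts, clusters and cell types per cell. Cell Ranger 1.2.1 and the build mm10 are named in the submitters' processing notes. Filters on cells are not given in the sources used here. The matrix sums equalled the deposited totals in all 67050 cells of the 6 libraries. The cell table also covered 2 libraries (26078 cells, 28.0%) that were not analysed here.

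Levels are counts per 1000000 UMIs (CPM) of the cell type and library. Shares were also computed after thinning to 2000 and 4000 UMIs. Cells with an Atoh7 UMI were matched 1 to 1, without replacement, to the nearest total within library and type. Counts summed per library and class were tested with edgeR 4.0.16 (filterByExpr, TMM, quasi-likelihood F test, two-sided; R 4.3.3), with Benjamini-Hochberg adjustment over all genes tested. The genotype fit held all 6 libraries with group as its term. The scripts were tested on simulated data. Doublets were not called; an alternative left out the 8% of cells with the highest totals. Other alternatives were RLE size factors, DESeq2 1.42.0, no filter, no library block or a replicate block, no matching, matching within clusters, a second matched set, at least 2 Atoh7 UMIs, thinning, and each library left out. Promoter windows came from RefSeq (GRCm38.p6) and gene positions from GENCODE M21, which need not be the annotation the authors counted against.

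The gene, the lists and the tests were chosen with earlier results of these data known. Named genes were Atoh7, members of 11 lists, up to 12 called genes each way in neurogenic cells (mean of 20 CPM or more in the higher class, same direction in both libraries) and the 10 genes with the most similar cluster profile, without Xist, Tsix and Y-linked genes. Leaving out the shared barcodes was added after the data were seen. The numbers of replicates did not pair samples across genotypes.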

Additional observations from a re-analysis of the deposited data

Results flagged for a closer look

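The effect of Atoh7 detection differed between neurogenic cells and progenitors for 3 genes, by the edgeR test of the difference itself: Gadd45a (-2.54), Hes6 (-1.37) and Ccnd1 (-1.01), each as log2 in neurogenic cells minus progenitors. Gadd45a and Ccnd1 were called in each of 4 alternatives (adjusted p 1.44e-16 to 0.0280 and 1.79e-05 to 0.0310), and Hes6 in 3 of 4. With a second matched set the differences were -1.51 for Gadd45a, -0.52 for Hes6 and -0.61 for Ccnd1. Gadd45a was read in 98.7% and 98.9% of the detected neurogenic cells. In progenitors the counts were small, with 8 and 5 Gadd45a UMIs in the matched sums.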

How the results depend on the processing

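Counts of called genes depended strongly on the settings, with 1 residual degree of freedom in each comparison of cells. In neurogenic cells 16 genes became 140 with RLE size factors, 6 with DESeq2, 42 with no replicate block, 838 with no match on total UMIs, 8 with a match within cluster, 289 with a second matched set, 4 with at least 2 Atoh7 UMIs and 68 without the 8% of cells with the highest totals. In the same order, where a count moved by over 1.5 times, 7 genes in progenitors became 0 with DESeq2, 2 with no replicate block, 0 with no match, 4 with a match within cluster, 1 with a second matched set and 4 with no filter. In ganglion cells 58 became 124 with RLE, 33 with DESeq2, 749 with no match, 0 with a match within cluster, 351 with a second set, 10 with at least 2 UMIs, 116 without the highest totals and 0 with no filter. DESeq2 gave no adjusted p for 7138 genes in neurogenic and 5062 in ganglion cells. The 3 genes of the difference between types became 62 with no match. The genotype counts of 5518 and 5499 ranged from 3663 to 5401 and from 3516 to 6054 with a library left out, the lowest without Bax null replicate 2, and became 997 and 1118 within libraries. With a replicate block they were 5387 and 5376; the correlations of same-numbered deviations were -0.0108, 0.379 and -0.170 over 5649 genes. The cause of these moves was not tested.

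Shares thinned to 2000 and 4000 UMIs were 1.42% and 2.60% over all cells, 2.43% and 5.79% in cones, 5.18% and 9.72% in neurogenic cells, 0.108% and 0.224% in progenitors, and 2.07% at 2000 UMIs in ganglion cells. Among named genes 751 values stayed, 128 lost and 67 gained a call, 33 changed sign and 12 moved. A value stayed if it kept direction and call. With 1 library left out of a comparison of cells there is no call, and a value stayed if it lay within the SD of the libraries' values, or else moved. DESeq2 values with no adjusted p were not counted unless their sign changed. In neurogenic cells Neurod1 turned to -0.01 with DESeq2, -0.26 within clusters, -0.15 with 2 UMIs, -0.09 without the highest totals and from 0.29 to -0.31 with either library left out, Neurog2 from 0.64 to -0.22 with either left out, and within clusters Pou4f2 to -0.20 and Hes6 to -0.05. Hes5 in progenitors turned to -0.19 within clusters. In ganglion cells Gap43 turned to 0.04 and Nefl to 0.09 within clusters, Pou4f2 to -0.36 with the second set, and Isl1 to -0.11 with the second set, -0.99 with 2 UMIs, -0.0023 without the highest totals and from 0.13 to -0.09 with either library left out. In the double null against Bax null, Hes5 turned to -0.00072 with RLE, -0.00066 with DESeq2, -0.01 with no filter, -0.07 without Bax null replicate 2, -0.06 without Bax null Atoh7 null replicate 1 and -0.15 within libraries. Gadd45a turned there to 0.09 without Bax null replicate 1, 0.21 without Bax null Atoh7 null replicate 1 (-0.29 the lowest with a library left out) and 0.09 without shared barcodes, and between Bax het Atoh7 null and Bax null to 0.08 without Bax null replicate 1 (-0.1 the lowest) and 0.0026 when thinned. Within libraries Bhlhe22 turned to -0.43 and -0.35, Pkib to -0.34 and -0.55 and Mfng to -0.22 and -0.37 in the double null and the Bax het Atoh7 null against Bax null. With 1 library left out the comparisons of cells have no residual degrees of freedom, so they give values and no counts. At least 2 UMIs could not be fitted in progenitors.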
